A study of Komagataella phaffii CBS 7435 with 54 samples.

Results

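The 51 genes described here were selected from 5077 array probes with a systematic name of the PAS_ type by the course of their transcript levels in *Pichia pastoris*: not or little raised in slow chemostats and on the first retentostat day, where some were lower, and at least doubled on the last. A gene was selected when its mean log2 ratio, relative to the chemostat at a dilution rate of 0.1 h−1, was below 1 in the chemostat at 0.025 h−1, below 0.5 after 21 h of retentostat cultivation and at least 1 after 545 h, with the 545 h value no more than 0.5 below that at 65 h. All of these values chose the members, so they are given below as a description and without a test. The conditions that played no part in the choice, namely 116 h, 380 h and the chemostats at 0.05 and 0.075 h−1, carry the tests. They lie between conditions of the selection, so their results are not independent of it.

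Glucose-limited cultures were run as chemostats at 0.025, 0.05, 0.075 and 0.1 h−1 and as retentostats sampled after 21, 65, 116, 380 and 545 h, and total RNA was compared with a common pool on 2-color arrays. Each of the 9 conditions had 3 numbered replicates and each replicate a pair of arrays with opposite dyes, which gave 54 arrays. The labels name strain CBS 7435, and the methods a derivative of it, Δflo8, a single-colony isolate that lacks the flocculation regulator FLO8, so that every culture carried the deletion and no culture without it was measured. The methods describe duplicate cultures, so some of the 3 numbered replicates must share a culture. The retentostat times were successive samples of the same runs, while the fit treated all samples as independent. Which sample came from which run is not given. The p values measure only the spread between the numbered replicates. Retentostats and chemostats were run in bioreactors of different size, and cultivation system, culture age and growth rate cannot be told apart between them.

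In a chemostat, growth rate is set by the rate of feeding. In a retentostat, a filter keeps the biomass in the vessel while feeding goes on, so that each cell receives ever less glucose and growth slows toward a halt while the cells stay metabolically active. In yeasts, slow growth under glucose limitation is known for lower transcript levels of ribosome and biosynthesis genes. It is also known for higher levels of genes of stress defense and nutrient acquisition. For the retentostats used here, however, the study reported no marked fall in transcripts of protein synthesis genes. Gene names and products were not used here, so the genes are described by locus tag and in the order of their time courses. In a locus tag such as PAS_chr3_0337, the part after PAS_ is the sequence scaffold of strain GS115 and the last part the number of the gene on it.

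Depth on the arrays was sufficient for nearly all of the 51 genes. Between 89.9% and 98.4% of the spots of an array were well above background, and 48 of the 51 genes were so on all 54 arrays in the culture channel. No spot of any of the 51 genes was saturated. The exceptions were PAS_chr1-4_0473 and PAS_chr3_0019, each short by 1 of 6 arrays in the chemostat at 0.1 h−1, and PAS_chr3_0018. PAS_chr3_0018 was well above background on 2 of 6 arrays at 0.1 h−1, on 1 of 6 at 65 h and on all 6 at 116, 380 and 545 h, so its earlier levels are poorly measured. The median culture signal of the 51 genes was 2340 arbitrary units, with 126 as the lowest and 74300 as the highest, beside 4220 for all 5371 probes. Over all spots except controls, the median uncorrected culture signal was 2141 to 2712 in the retentostat conditions. In the chemostats it was higher, at 4479 to 5131. Relative to the pool, 18 of the 51 genes were above it at 0.1 h−1 and 47 at 545 h.

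The median of the 51 genes climbed through the whole series. On the log2 scale and relative to the chemostat at 0.1 h−1, the slower chemostats gave medians of 0.012 (0.075 h−1), 0.083 (0.05 h−1) and 0.23 (0.025 h−1). The retentostat gave 0.36 after 21 h, 0.53 after 65 h, 0.72 after 116 h, 1.11 after 380 h and 1.12 after 545 h. The median of all probes stayed between 0 and 0.064 in the same conditions. The median over the genes in single replicates was 0.69, 0.80 and 0.74 at 116 h and 1.12, 1.13 and 1.05 at 380 h, so that the replicates of these conditions did not overlap. At 65 h it was 0.60, 0.52 and 0.42, and replicate 3 held the lowest value of 28 of the 51 genes and replicate 1 the highest of 35. The replicate SD was above 0.2 for 15 genes at 65 h and for no more than 4 in any other condition.

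**Figure D1:**
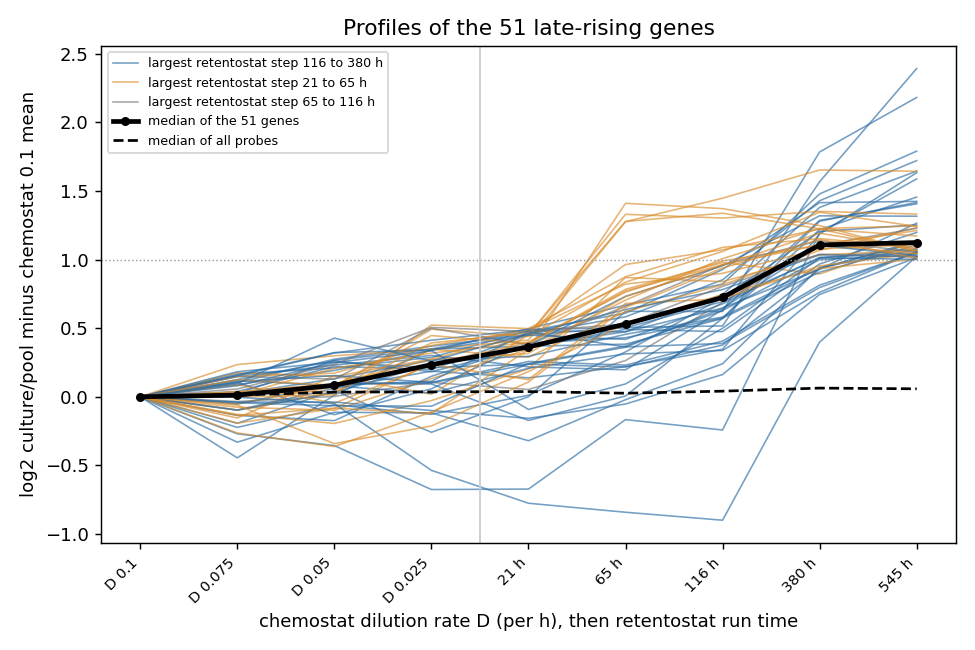
Log2 culture/pool ratio minus the chemostat 0.1 mean (y axis) for each of the 51 genes (thin lines, means of 3 replicates) over 4 chemostat dilution rates and 5 retentostat times (x axis, evenly spaced conditions). The median of the genes (thick line) reached 1.11 at 380 h and 1.12 at 545 h, while the median of all probes (dashed) stayed at or below 0.064. Colors mark the retentostat interval with the largest step.

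Not all of these genes rose late in the strict sense. The median gene had reached 26.5% of its 545 h difference at 21 h, 41.1% at 65 h, 62.8% at 116 h and 91.5% at 380 h. At 65 h, 4 genes were already at or above 1, at 116 h there were 8 and at 380 h 36. The largest of the 4 retentostat steps lay between 116 and 380 h for 30 genes, between 21 and 65 h for 18 and between 65 and 116 h for 3, and for none between 380 and 545 h. The intervals differ in length, so the steps are not rates.

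The 30 genes with their largest step between 116 and 380 h had medians of 0.38 at 65 h, 0.58 at 116 h, 1.03 at 380 h and 1.17 at 545 h. The 18 genes with an early step had medians of 0.80, 0.98, 1.15 and 1.097 at the same times, and most of that final level was already present at 116 h. The highest condition mean was at 545 h for 35 of the 51 genes, at 380 h for 14 and at 65 or 116 h for 2. The criterion at 21 h decided almost all of the selection: 631 of the 5077 probes, or 12.4%, were at or above 1 at 545 h, all of the other 580 missed the 21 h criterion, and 503 of them missed nothing else. The criteria at 0.025 h−1 and at 65 h excluded no gene by themselves.

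Many genes lay close to a threshold. At 21 h, 17 of the 51 genes were between 0.4 and 0.5, and 37 other genes between 0.5 and 0.6 missed only that criterion. The member nearest to it was PAS_chr1-4_0413 at 0.497, and the nearest gene outside was PAS_chr3_0836 at 0.501. At 545 h, 23 genes were below 1.1, 20 between 1.1 and 1.5 and 8 at or above 1.5. The member nearest to the limit was PAS_chr3_1064 at 1.00, and PAS_chr3_1211 was just outside it at 0.993.

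Whether the genes still changed within the late retentostat was tested between 380 and 116 h, both outside the selection. By limma with Benjamini-Hochberg adjustment over 5371 probes, 41 of the 51 genes were higher at 380 h and 0 were lower, beside 20.2% of all probes higher and 20.4% lower. The difference was positive for 48 genes, with a median of 0.36 and a range from -0.12 to 1.44, against a median of 0.0062 for all probes. In 45 genes all 3 replicates at 380 h were above all 3 at 116 h, which held for 29% of all probes. Of the 580 other genes that were at or above 1 at 545 h, 115 were higher at 380 h and 106 lower. Their median was -0.013, so that rises and falls were about equally frequent among them. All 580 had missed the 21 h criterion, so this contrast is also partly set by the selection.

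A difference of more than 2-fold between 380 and 116 h was found in 4 of the 51 genes, all higher at 380 h. Among all probes, 7 (0.13%) were more than 2-fold higher at 380 h and 18 (0.335%) more than 2-fold lower. The 4 genes were PAS_chr3_0288, PAS_chr4_0995, PAS_chr1-1_0339 and PAS_chr3_0337. Among all probes the 5th to 95th percentile of this difference ran from -0.39 to 0.30, and 29 of the 51 genes were above it. With each replicate of the series left out in turn, 33 of the 41 genes stayed called in every fit. Arrays of 380 and 116 h shared 1 slide, on which the median difference was 0.47, and 2 scan days, within which it was 0.44 and 0.31.

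**Figure D2:**
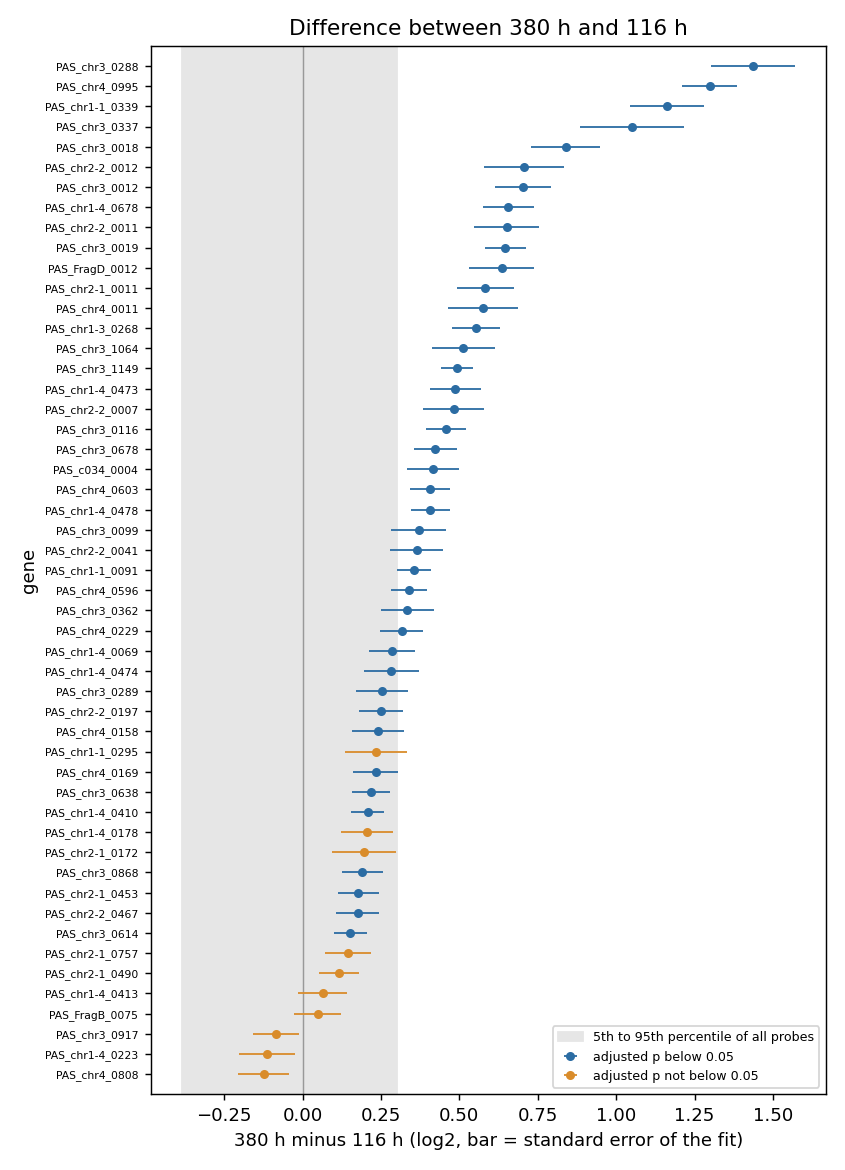
Difference between 380 and 116 h (x axis, log2, mean of 3 replicates each) for the 51 genes (y axis), with the standard error of the fit as bars. The 41 genes with an adjusted p below 0.05 are blue and the other 10 orange, and the gray band is the 5th to 95th percentile of all probes, from -0.39 to 0.30.

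PAS_chr3_0337 had the largest 545 h difference of the 51 genes. Its replicates lay between 0.0052 and 0.057 at 0.075 h−1, and at 0.57, 0.45 and 0.53 at 116 h. They were 2.22, 1.54 and 0.94 at 380 h and 2.22, 2.40 and 2.56 at 545 h. The replicates at 380 h spread widely, up to the lowest of 545 h, yet all lay above those of 116 h. The difference between 380 and 116 h was 1.05 (SE 0.17, limma adjusted p = 3.15e-05) and fell to 0.73 or rose to 1.36 when 1 replicate was left out. That fit shares its spread over all conditions, most of which varied less for this gene. With only the 2 conditions compared in the fit, the limma adjusted p was 0.00628.

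PAS_chr1-1_0339 stood at 0.59, 0.66 and 0.62 at 116 h, at 1.75, 1.74 and 1.87 at 380 h and at 2.31, 2.19 and 2.04 at 545 h. Its 65 h replicates were apart, at 0.26, 0.52 and 1.09. It rose by 1.16 between 116 and 380 h (SE 0.12, limma adjusted p = 1.2e-07), and no replicates of these times overlapped. In the chemostats at 0.025 h−1 its mean was -0.26, below that at 0.1 h−1. Its ratio to the pool was -2.18 at 0.1 h−1 and 0.002 at 545 h, so the late level was that of the pool. Its culture signal was low, with 353 arbitrary units on average over the arrays.

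A curated probe list from the study's supplement pairs PAS_chr1-1_0339 and 2 other probes, PAS_chr1-1_0338 and PAS_chr1-1_0498, with a single reading frame of strain CBS 7435, PP7435_Chr1-0659. The 3 GS115 gene models follow each other on chromosome 1 of the reference table, and their probes did not move together. At 545 h PAS_chr1-1_0338 was at -2.58, PAS_chr1-1_0339 at 2.18 and PAS_chr1-1_0498 at -0.10 relative to 0.1 h−1. Between 116 and 380 h PAS_chr1-1_0338 fell by 0.25 (SE 0.093, limma adjusted p = 0.0368) while PAS_chr1-1_0498 differed by 0.098 (SE 0.064, adjusted p = 0.229). The level of a transcript over the whole frame is therefore not given by the probe of PAS_chr1-1_0339, and which of the models is right was not tested.

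**Figure D3:**
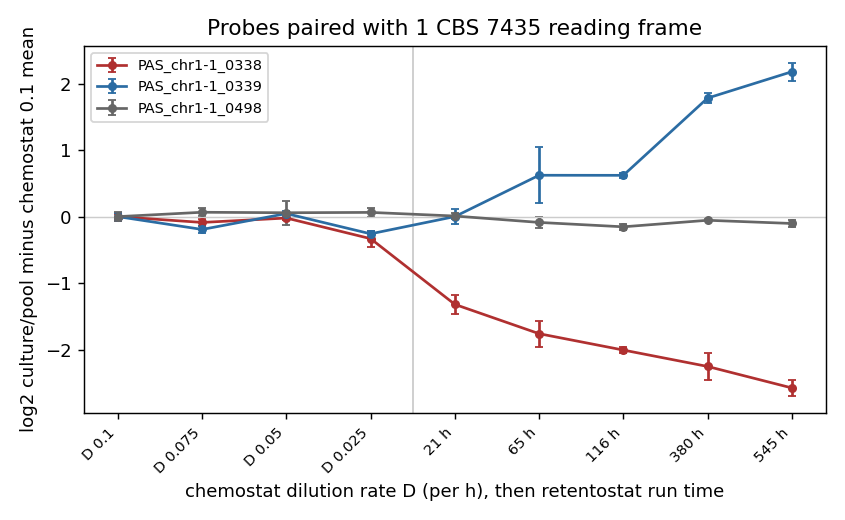
Log2 culture/pool ratio minus the chemostat 0.1 mean (y axis; mean and SD of 3 replicates) of the 3 probes paired with the reading frame PP7435_Chr1-0659, over the 9 conditions (x axis). At 545 h PAS_chr1-1_0338 was at -2.58, PAS_chr1-1_0339 at 2.18 and PAS_chr1-1_0498 at -0.10.

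PAS_chr3_0288 and PAS_chr4_0995 fell before they rose. PAS_chr3_0288 was at -0.75, -0.70 and -0.57 at 0.025 h−1, at -0.44, 0.04 and -0.33 at 116 h and at 1.32, 1.24 and 1.02 at 380 h. The 380 h replicates were all above those of 116 h, by 1.44 in the mean (SE 0.13, limma adjusted p = 3.36e-08), the largest difference of the 51 genes in this interval. At 116 h it differed by 0.028 from the chemostat at 0.075 h−1 (limma adjusted p = 0.85).

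PAS_chr4_0995 was near 0 in the 3 faster chemostats, with means of -0.0028 at 0.075 h−1 and -0.050 at 0.05 h−1. Its replicates were -0.90, -0.88 and -0.91 at 116 h, 0.48, 0.36 and 0.36 at 380 h and 0.93, 0.99 and 1.15 at 545 h. It was the gene that was lowest at 116 h among the 51, and the only one of them called lower there than at 0.075 h−1, by -0.90 (SE 0.087, limma adjusted p = 1.08e-09). It rose by 1.30 between 116 and 380 h (SE 0.087, adjusted p = 1.03e-09). Its culture signal, 281 arbitrary units on average over the arrays, was low, as was that of PAS_chr3_0288 with 336.

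The next genes by the size of the 545 h difference, except PAS_chr1-4_0178 (described below), had their largest retentostat step between 116 and 380 h. PAS_chr1-4_0678 had replicates of 0.81, 0.81 and 0.84 at 116 h, 1.63, 1.52 and 1.29 at 380 h and 1.58, 1.77 and 2.02 at 545 h. Its step from 116 to 380 h was outside the replicate spread (0.66, SE 0.081, limma adjusted p = 1.65e-06), while its replicates of 380 and 545 h overlapped. PAS_chr4_0011 (0.58, SE 0.11, adjusted p = 3.17e-04), PAS_FragD_0012 (0.63, SE 0.10, adjusted p = 4.84e-05) and PAS_chr3_0018 (0.84, SE 0.11, adjusted p = 3.69e-06) also were higher at 380 than at 116 h. Their 545 h means were 1.72, 1.64 and 1.63. At 65 h PAS_chr4_0011 was at 0.88, 0.57 and 0.30, which made its position between 21 and 116 h uncertain.

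PAS_chr3_0019, PAS_chr2-2_0011, PAS_chr2-2_0012 and PAS_chr1-4_0473 had 545 h means between 1.41 and 1.45. They rose between 116 and 380 h by 0.65, 0.65, 0.71 and 0.49, with limma adjusted p values of 9.56e-08, 3.36e-05, 1.38e-04 and 5.35e-05. The mean of PAS_chr2-2_0012 at 65 h was 0.0058, but its replicates were apart at 0.39, -0.08 and -0.29, so a rise by then was uncertain. They were 0.48, 0.61 and 0.63 at 116 h and 1.29, 1.38 and 1.17 at 380 h. PAS_chr3_1064, just inside the 545 h limit, rose by 0.51 (SE 0.10, adjusted p = 3.49e-04) with replicates of 0.39, 0.56 and 0.55 at 116 h and 1.06, 1.04 and 0.94 at 380 h, and its 545 h replicates of 0.94, 1.06 and 1.00 straddled the limit.

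**Figure D4:**
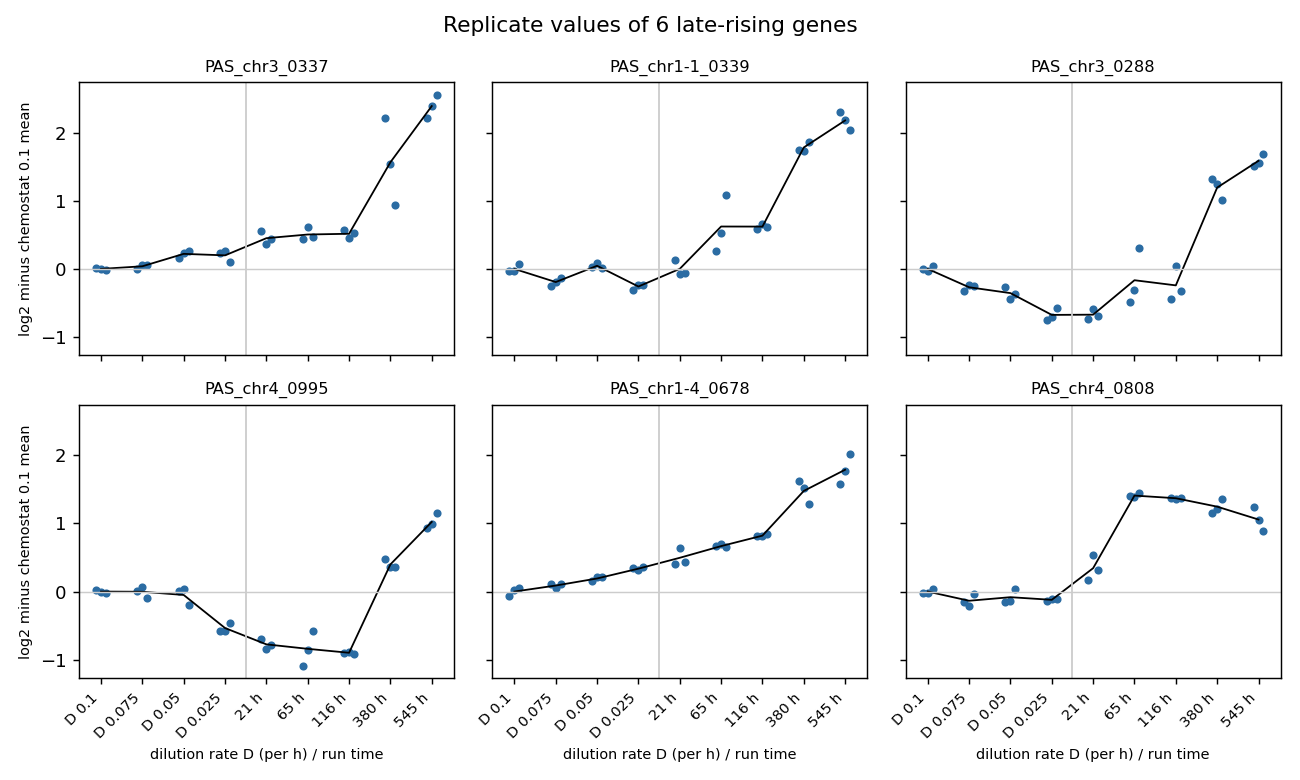
Each of the 3 replicates (points) and their mean (line) for 6 of the genes over the 9 conditions (x axis), as log2 culture/pool ratio minus the chemostat 0.1 mean (y axis). PAS_chr3_0288 and PAS_chr4_0995 were below 0 in the mean at 116 h and above it at 380 h, and PAS_chr4_0808 was at its highest mean at 65 h.

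At the other end were genes that had risen by 65 h and differed little between 116 and 380 h. PAS_chr4_0808 was at 0.17, 0.54 and 0.32 at 21 h, then at 1.40, 1.39 and 1.44 at 65 h and at 1.37 in each replicate at 116 h. It was at 1.16, 1.22 and 1.37 at 380 h and at 1.24, 1.05 and 0.89 at 545 h. The difference of -0.12 between 380 and 116 h (SE 0.081) did not pass the test (limma adjusted p = 0.229). With PAS_chr1-4_0223 it was 1 of 2 genes with a lower mean at 545 h than at 65 h.

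PAS_chr1-4_0223 (-0.11, SE 0.090, limma adjusted p = 0.327), PAS_chr3_0917 (-0.084, SE 0.074, adjusted p = 0.385), PAS_FragB_0075 (0.049, SE 0.075, adjusted p = 0.633) and PAS_chr1-4_0413 (0.064, SE 0.078, adjusted p = 0.538) were the others with the smallest differences between 380 and 116 h. PAS_FragB_0075 was already at 1.38, 1.23 and 1.38 at 65 h after 0.34, 0.53 and 0.49 at 21 h, and ended at 1.42, 1.32 and 1.25. PAS_chr1-4_0178, the sixth by its 545 h mean of 1.64, had a like course with 1.40, 1.32 and 1.11 at 65 h, and its difference of 0.21 between 380 and 116 h (SE 0.084) narrowly missed the threshold (adjusted p = 0.0539). It passed with the replicate number as a block (adjusted p = 0.0435) and in 5 other settings.

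Measured against the chemostat at 0.075 h−1, a control that the selection had not used, all 51 genes were higher at 380 h by limma adjusted p, beside 45.3% of all probes. A change of more than 2-fold in addition was seen in 33 of the 51, all of them higher, beside 11.2% of all probes higher and 7.39% lower, and the median difference was 1.15. At 116 h, 49 genes were higher and 1, PAS_chr4_0995, lower, beside 42.8% and 39.4% of all probes, with a median of 0.74. At this time 12 of the 51 were also more than 2-fold higher and 0 lower, beside 12.2% and 5.68% of all probes. The 580 other genes at or above 1 at 545 h had medians of 1.39 at 116 h and 1.36 at 380 h in the same comparisons. By limma adjusted p, 579 of them were higher at 116 h and 580 at 380 h. A change of more than 2-fold in addition was seen in 468 and 474 of them. Both comparisons share the chemostat at 0.075 h−1, and their counts are not independent of each other. The chemostats at 0.075 and 0.1 h−1 lie next to each other in the series, and nearly all of the 580 other genes were higher too. The counts of higher genes against 0.075 h−1 therefore follow largely from the 545 h criterion and are a description.

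The 12 genes already more than 2-fold higher at 116 h than at 0.075 h−1 were led by PAS_chr4_0808 (1.51, SE 0.081, limma adjusted p = 1.36e-14), PAS_chr1-4_0223 (1.49, SE 0.090, adjusted p = 1.38e-13) and PAS_chr1-4_0178 (1.21, SE 0.084, adjusted p = 2e-12). The difference of PAS_chr3_0019 (1.02, SE 0.065, adjusted p = 3.67e-13) rested in part on a low level at 0.075 h−1, where its replicates were -0.43, -0.54 and -0.37 relative to 0.1 h−1. Within 1 slide and within each of 2 scan days the median over the 51 genes was 0.75, 0.70 and 0.75 for this comparison, and 1.14, 1.15 and 1.12 for 380 h against 0.075 h−1.

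Little of the rise was seen between chemostats, and the selection partly sets this. Its criterion at 21 h, below 0.5, kept out genes that had risen early. Between 0.05 and 0.075 h−1, 6 of the 51 genes were higher and 2 lower (limma, adjusted p below 0.05), beside 17.4% and 7.19% of all probes, and 0 differed by more than 2-fold in either direction (0.0186% of all probes higher, 0.0372% lower). The median was 0.077, beside 0.032 for all probes, and within batches it was 0.042 on slide D and 0.15 on slide F, and 0.042 and 0.12 within 2 scan days. Among the 580 other genes at or above 1 at 545 h, all of which missed the 21 h criterion, 338 were higher at 0.05 h−1, with a median of 0.22. The 6 genes were PAS_chr3_0019 (0.46), PAS_chr3_0289 (0.33), PAS_chr1-4_0223 (0.31), PAS_chr1-4_0473 (0.24), PAS_chr2-1_0490 (0.20) and PAS_chr4_0596 (0.16), and the 2 lower ones PAS_chr3_0362 (-0.24) and PAS_chr1-4_0410 (-0.28). At 0.025 h−1, a condition of the selection, the means of the 51 genes lay between -0.68 and 0.52, and 11 were below 0.

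Some of the genes sat near chromosome ends, a feature that the selection had not used. In the gene order of the RefSeq table of strain GS115 (assembly ASM2700v1), 50 of the 51 genes were found, and 9 of them (18%) were among the 20 outermost genes of an end of the 4 chromosomes. Of all 5040 probes in the table, 160 (3.17%) were in these positions, and of the 570 other genes at or above 1 at 545 h that the table holds, 16 (2.81%). The window was chosen after the positions had been seen, so these shares are a description only. With 10 genes from an end it was 7 of the genes (14%) and 1.59% of all probes, and with 50 genes 11 (22%) and 7.94%.

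The genes near ends were PAS_chr2-1_0011, PAS_chr2-2_0007, PAS_chr2-2_0011 and PAS_chr2-2_0012 on chromosome 2, PAS_chr3_0012, PAS_chr3_0018 and PAS_chr3_0019 on chromosome 3, and PAS_chr4_0011 and PAS_FragD_0012 on chromosome 4. None was near an end of chromosome 1. All 9 had their largest retentostat step between 116 and 380 h. All 9 were higher at 380 than at 116 h (limma, adjusted p below 0.05), by a median of 0.65 and between 0.48 and 0.84. Of the 42 other genes, among them PAS_c034_0004, 32 were higher, with a median of 0.28. Of the other 151 probes near ends, 26 (17.2%) were higher at 380 h and 26 lower, with a median of 0.028. PAS_chr3_0012, at -0.32 at 21 h and 0.94 at 380 h, and PAS_chr2-1_0011, at -0.16 and 0.75, were 2 of the 6 genes below 0 at 21 h.

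**Figure D5:**
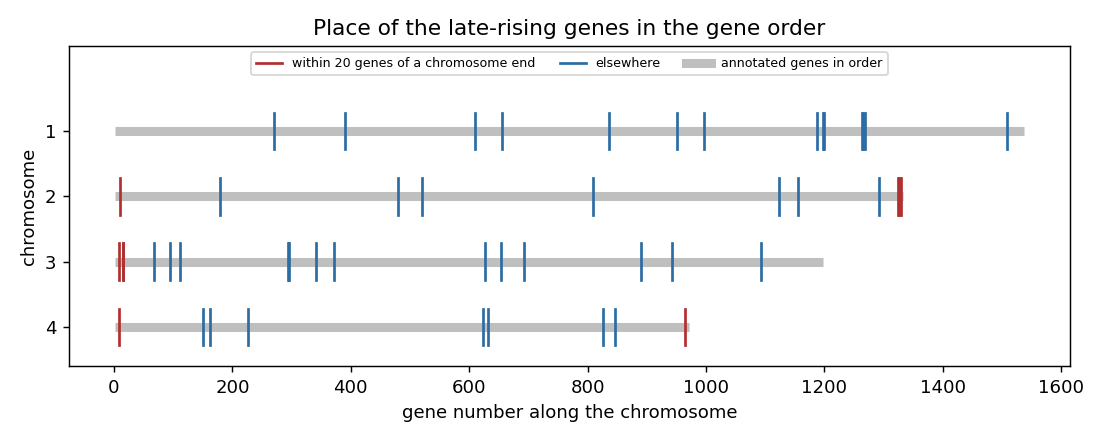
Place of the 50 genes found in the reference table (vertical marks) in the order of annotated genes along each of the 4 chromosomes (x axis, gene number; gray bars, all annotated genes). The 9 genes within 20 genes of an end are red, 4 on chromosome 2, 3 on chromosome 3 and 2 on chromosome 4.

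In 4 cases 2 of the genes were direct neighbors: PAS_chr1-4_0473 with PAS_chr1-4_0474, PAS_chr2-2_0011 with PAS_chr2-2_0012, PAS_chr3_0018 with PAS_chr3_0019, and PAS_chr3_0288 with PAS_chr3_0289. At 65 h the replicates of PAS_chr2-2_0011 were 0.54, 0.14 and -0.08, and those of PAS_chr2-2_0012 0.39, -0.08 and -0.29. Replicate 1 was the highest there in 35 of the 51 genes and replicate 3 the lowest in 28, so this order was not particular to the pair. These 2 neighbors had like courses, with 545 h means of 1.41 and 1.42. The neighbors PAS_chr3_0288 and PAS_chr3_0289 did not: the latter was at 0.46 at 21 h, where the former was at -0.67, and rose by 0.25 between 116 and 380 h (SE 0.084, limma adjusted p = 0.0181), where the former rose by 1.44. Neighboring or near-identical genes can share signal on an array, and probe specificity was not tested. The median length of the 50 genes in the table was 1269 bases, beside 1197.5 for all probes in it.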

How the data were processed

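The authors deposited scanner output with spot and background intensities, log10 ratios of the scanner software (Feature Extraction 11.5.1.1), and a processed table of log2 ratios per probe made with normexp, LOESS and Aquantile steps. Dyes were taken from the labels. The processed table was an alternative only, since 18 of its 54 columns ran as pool over culture when set against the scanner output of the same array; its scale is log2, it is centered near 0, and why the direction differed is not known.

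Median intensities were background corrected (normexp, offset 50) and normalized by LOESS in limma 3.58.1 (R 4.3.3, statmod 1.5.0, and version 1.17.8 of data.table). Spots marked as outliers (0.676%) and the 536 control spots of each array were not used, spots of a probe and then the dye pair of a replicate were averaged, and 9 condition means were fitted to 27 replicates with eBayes and Benjamini-Hochberg adjustment over 5371 probes. Genes were called at an adjusted p below 0.05, with a change of more than 2-fold in addition for 116 and 380 h against 0.075 h−1. The number of arrays limits precision. Array-wise normalization gives levels relative to all transcripts, and a level per cell and a share of cells cannot be told apart. Simulated data held 200 changed probes. On them the test between 380 and 116 h recovered 95% of changes of 0.5 and 100% of those of 1.5, with 11 false calls. The simulated replicates were drawn independently, without shared cultures, slides or dye effects. These rates therefore do not give the error rate of the test on the real data.

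Members, named genes and comparisons were chosen with earlier results of these data known. Named genes were the 12 with the largest 545 h difference, the 5 largest and 5 smallest differences between 380 and 116 h, the neighbors of each threshold, genes of short call lists, and genes chosen after their values or positions were seen. Planned lists by annotated product and promoter motifs were not run, since no products or promoter sequences were used here.

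Alternatives were other background corrections and normalizations, the scanner ratios, the processed table, slide, scan day (added after the data were seen) or replicate number as a block, a filter on dim probes, other call rules and leaving out each replicate. The replicate numbers did not pair 116 h, 380 h and 0.075 h−1 samples: same-numbered deviations from the condition means correlated between -0.28 and 0.24. Those of 0.05 and 0.075 h−1 correlated by 0.14, 0.23 and 0.29. The main fit did not pair them, and replicate number entered only as a block in an alternative fit.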

Additional observations from a re-analysis of the deposited data

How the results depend on the processing

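Of 266 alternative values for the difference between 380 and 116 h in 19 named genes, 243 kept their direction and side of the threshold, 6 (all PAS_chr1-4_0178) passed it and 12 no longer did, all of these in the processed table as deposited. In that table, in which 18 of 54 columns ran the other way, none of the 51 genes was called in any of the 4 comparisons (0 each), 317 genes met the selection rule, and the medians over the 51 genes were 0.10 for 380 against 116 h, 0.32 for 380 h against 0.075 h−1, 0.22 for 116 h and 0.0011 for 0.05 h−1. The directions of PAS_chr3_0337 (-0.12), PAS_chr3_0917 (0.089), PAS_chr1-4_0223 (0.059) and PAS_chr4_0808 (0.010) turned there. With these columns turned back, 50 genes met the rule, 47 of them among the 51, and 41 were called between 380 and 116 h.

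Membership depended on normalization. Median centering in place of LOESS gave 49 genes, 27 of them among the 51, and the ratios of the scanner software gave 94, with 46 among them. Leaving out 1 replicate gave 47 to 57 genes, with at least 42 of the 51. Called counts for the 51 genes then ranged from 35 to 43 for 380 against 116 h, 32 to 35 for 380 h against 0.075 h−1, 9 to 14 for 116 h and 3 to 10 for 0.05 h−1, with medians of 0.33 to 0.38, 1.12 to 1.17, 0.71 to 0.76 and 0.068 to 0.10. Of the 0.05 h−1 count of 8, 5 and 4 were left without replicates 1 and 2 of 0.05 h−1, and 3, 3 and 4 without replicates 1, 2 and 3 of 0.075 h−1. PAS_chr3_0917 ranged from -0.15 to 0.010 with 1 replicate left out.

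The 0.05 h−1 count was also 3 with median centering and with an adjusted p below 0.01. The 2-fold criterion left 4 genes between 380 and 116 h and 0 at 0.05 h−1, and without it the counts against 0.075 h−1 were 51 and 50. The median for 380 h against 0.075 h−1 was 1.09 with median centering, 1.22 with the scanner ratios and 1.06 against 0.05 h−1 instead, and that for 116 h 0.81 with the scanner ratios and 0.63 against 0.05 h−1. Within slide A and scan day 1 the median between 380 and 116 h was 0.47 and 0.44, and within slide F and scan day 2 that at 0.05 h−1 was 0.15 and 0.12, with 40 and 39 of the 51 genes higher. Within slide D and within scan day 1 it was 0.042, with 27 of the 51 higher. With the replicate block the called counts were 41, 33, 12 and 8, as without it. Genes within replicate error of a threshold and dim probes such as PAS_chr3_0018 are the least certain.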
